A study of Mus musculus with 8 samples.

Results

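The Mediator complex subunits were taken by gene name from the deposited RNA count table, where 32 of the 33 named genes were found among 27277 genes. The remaining gene, Med10, was not analysed here. The table holds 3 knockout and 3 control libraries from primary hepatocytes of mouse liver, the cells that carry most of its metabolism. Knockout cells carried the floxed gene with albumin-cre (Lcmr1f/f * albumin-cre), a Cre recombinase driven in hepatocytes, and control cells carried the floxed gene without Cre (Lcmr1f/f). Cells of both genotypes had spent 24 h in culture and 12 h with 100 nM glucagon, so no library shows the state without the hormone. Cre was present in the knockout cells alone, so the deletion and the presence of Cre cannot be told apart. A single chromatin immunoprecipitation (ChIP) library per genotype was also deposited as a list of enriched regions. The sample titles name RNA poll III as its target, while the series design text names Lcmr1, so what was precipitated is not settled here.

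Lcmr1 is an older name of Med19, so the deleted gene is itself a Mediator subunit. Mediator is a large complex that bridges transcription factors bound at enhancers and RNA polymerase II at promoters. Its head module contacts the polymerase, its middle module joins the head to the rest, its tail module receives many of the transcription factors, and the Med14 subunit runs through it as a scaffold. A separable kinase module, made of a cyclin-dependent kinase, cyclin C, Med12 and Med13, attaches reversibly and blocks polymerase binding while attached. Vertebrates have a second paralog for Med12, Med13 and the kinase. Med27, Med28, Med29 and Med30 sit where the head meets the tail and are placed in either by different structures, so they are described here as a junction group. Med19 was left out of every count and median of members.

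Med19 (ENSMUSG00000027080, chr2:84678402-84688215, mm10, plus strand) links the middle module to the polymerase and to the transcription factor REST. Levels are given in CPM, counts of a gene per 1000000 counts of its library, scaled by TMM factors, which set the bulk of genes equal between libraries. Med19 had 2.91, 5.27 and 3.02 CPM in the knockout libraries and 7.50, 10.8 and 13.4 CPM in the control libraries. The groups did not overlap, and the mean of the knockouts was 35.4% of that of the controls. Its log2 fold change was -1.50 (SE 0.31, edgeR quasi-likelihood adjusted p = 0.0120), and without knockout replicate 1 the adjusted p was 0.0505. Which exons were deleted cannot be read from these counts, which are summed over the gene. Tmx2 and Zdhhc5 overlap the ends of Med19 on the other strand, over 739 and 246 bases. Tmx2, a thioredoxin-related membrane protein gene, rose to 64.1 ± 12.3 CPM in the knockouts against 38.3 ± 4.77 CPM in the controls (SD, n = 3 each, log2 fold change 0.74, edgeR adjusted p = 0.0163, and 0.0598, 0.0509 and 0.0566 without knockout replicates 1 and 3 and control replicate 2), and Zdhhc5 did not pass the test (-0.11).

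Total counts per library ranged from 22191786 to 26595249. All 10 hepatocyte markers fell in the knockouts, with a median log2 fold change of -1.42, and their summed level was 29855 to 40055 CPM in knockout against 115940 to 128940 CPM in control libraries. Of 12 macrophage markers 10 rose, with a median of 0.83 and a summed level of 793 to 933 CPM in knockout against 382 to 462 CPM in control libraries. Endothelial markers had a median of 0.34 with 1 of 8 risen, and stellate cell markers 0.57 with 1 of 8 risen. Lymphocyte and bile duct markers had medians of 0.88 and 0.30, with 0 of 5 tested called in each list. Of the neutrophil markers 1 was tested, at -0.35, and it was not called. Among all genes tested, 12.6% rose and 13% fell at an edgeR adjusted p under 0.05. No marker of these cell types was at 0 in all libraries of a group, except the neutrophil marker Mpo in the controls. The part of other cell types in the results below was not tested. In such bulk samples, fewer cells of a type and less RNA per cell cannot be told apart. Control replicate 1 stood apart from the other controls, with chi-square statistics of 150 and 143 per degree of freedom against them, while the statistic between control replicates 2 and 3 was 7.41. Among the knockouts it was 29.4 between replicates 1 and 2, 27.3 between 1 and 3, and 54.7 between 2 and 3.

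Most of the remaining subunits did not pass the test. Of 31 members, all of which passed the filter on low counts, 2 rose (Med28 and Med13) and 1 fell (Med11) in the knockout, or 9.68% of them, while 25.5% of all 15135 genes tested were called by the same rule (edgeR adjusted p under 0.05). The log2 fold changes ran from -0.82 for Med11 to 1.09 for Med12l, with 16 above and 15 below 0. Their median was 0.02, beside 0.01 over all genes tested. Knockout and control libraries did not overlap for 15 members, 7 higher and 8 lower in the knockout. That is 48.4% of members, beside 45.9% of all genes tested (23.5% higher and 22.4% lower). An unadjusted p under 0.05 was reached by 10 members, and by 39.6% of all genes tested. The authors' deposited table gives Med28, Med13 and Med11 adjusted p of 0.00255, 0.0124 and 0.00488. These are the 3 of 31 members under 0.05 in it, beside 23.3% of its 18770 genes with an adjusted p. The table marks none of them as significant, since every gene it marks has an absolute log2 fold change of at least 1.00.

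**Figure D1:**
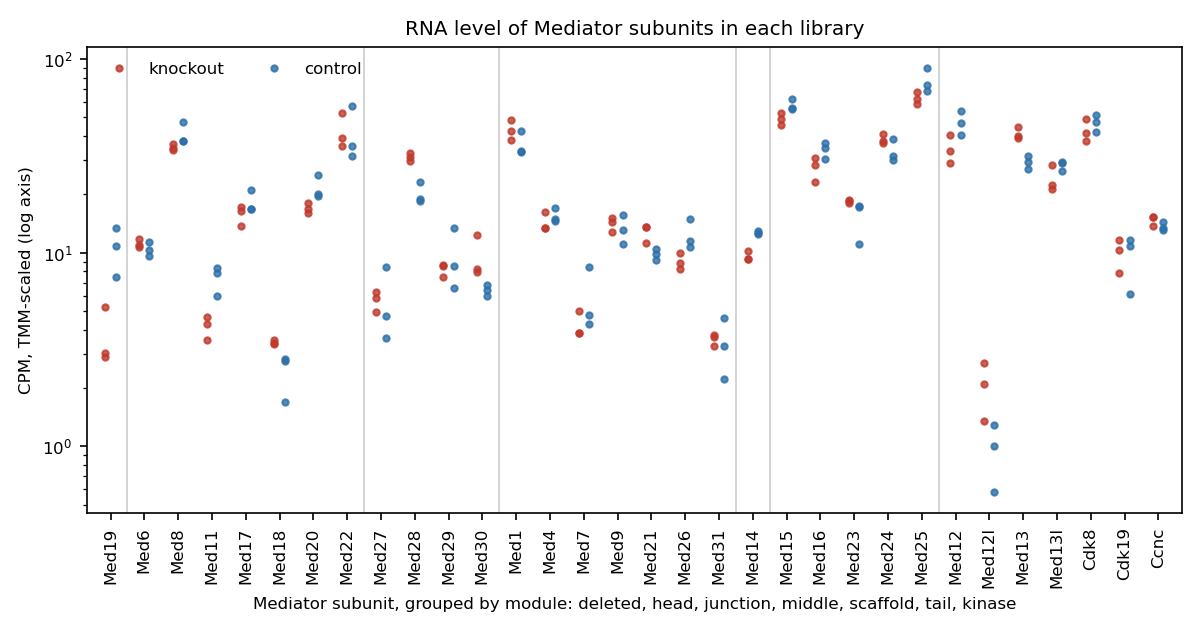
RNA level of each of 32 Mediator subunits in CPM scaled by TMM factors, on a log axis, in 3 knockout (red) and 3 control (blue) libraries, grouped by module. The groups separate for Med19, for 7 other subunits that lie higher in the knockout and for 8 that lie lower. Med28, Med13 and Med11 are among these, while for 16 subunits the libraries of both genotypes overlap.

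The sign of the log2 fold change depended on the scaling for 14 of the 31 members. The 10 most abundant genes took 11.5 to 11.8% of counts in knockout and 17.3 to 18% in control libraries, and TMM factors were 1.23 ± 0.0378 in knockout and 0.816 ± 0.0374 in control libraries (SD, n = 3 each). As plain CPM, without these factors, the 31 members summed to 808 ± 36.6 CPM in knockout and 558 ± 17.9 CPM in control libraries (SD, n = 3 each). With the factors they summed to 659 ± 16.8 CPM in knockout and 686 ± 54.9 CPM in control libraries. Under library size alone the median of all genes moved up by 0.59 on the log2 scale, 18 members rose and none fell, and 30 of 31 lay above 0. At that scaling 50.9% of all genes were called higher and 4.08% lower. All changes below are relative to the bulk of genes, as TMM sets it.

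**Figure D2:**
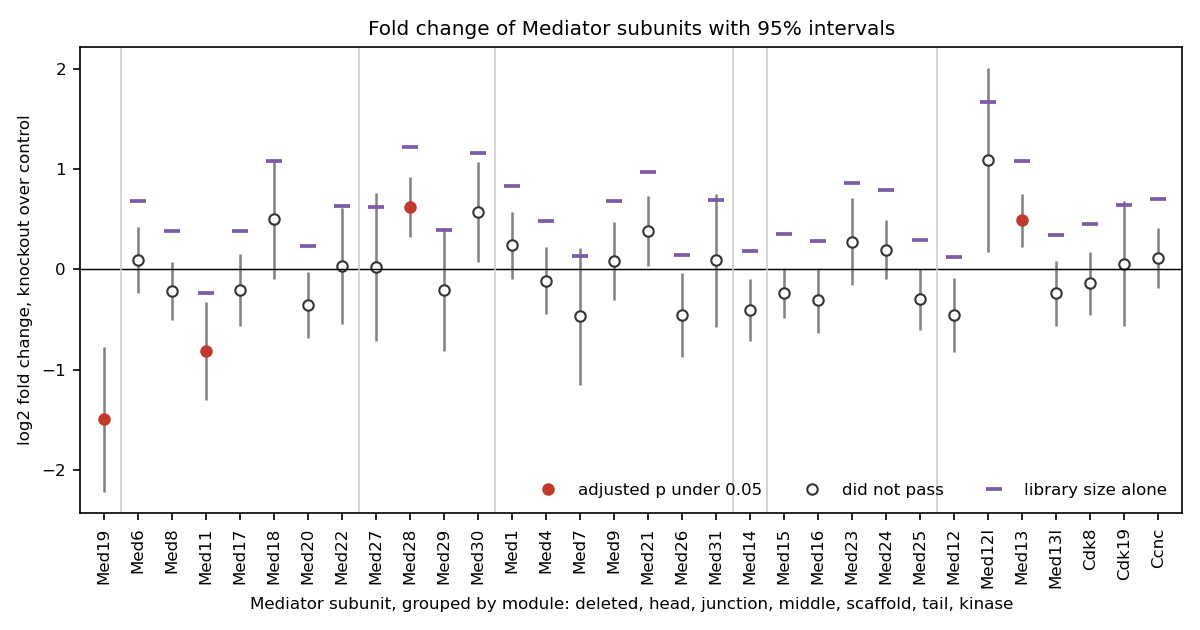
log2 fold change, knockout over control, of each Mediator subunit with its 95% interval from the edgeR fit scaled by TMM (circles, red where the adjusted p is under 0.05). Purple dashes give the same value under library size alone, for every subunit but Med19. The purple dashes lie higher than the circles throughout, and of the subunits with a dash Med11 stays below 0 on both scales.

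In the head module, Med11 was the member that passed. It pairs with Med22 at the base of the head. Med11 had 3.55, 4.67 and 4.30 CPM in the knockouts and 5.99, 7.82 and 8.29 CPM in the controls. Every knockout library lay below every control library (log2 fold change -0.82, SE 0.21, edgeR adjusted p = 0.0267). The call ended without knockout replicate 1 or 3 and without control replicate 2 or 3, with edgeR adjusted p of 0.0895, 0.0593, 0.0859 and 0.0947, and the value shrank to -0.24 under library size alone. Its partner Med22 overlapped between the groups, at 42.5 ± 9.01 CPM in the knockouts and 41.4 ± 13.6 CPM in the controls (SD, n = 3 each, log2 fold change 0.03, 95% interval -0.54 to 0.61).

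Med18 and Med20 form a movable jaw of the head and lay on opposite sides of 0. Med18 had 3.42, 3.53 and 3.37 CPM in the knockouts and 1.70, 2.81 and 2.75 CPM in the controls. Its groups did not overlap, but the log2 fold change of 0.51 did not pass (edgeR adjusted p = 0.187). Med20 averaged 16.9 ± 1.01 CPM in the knockouts and 21.7 ± 3.10 CPM in the controls (SD, n = 3 each), with a log2 fold change of -0.36 that did not pass either (edgeR adjusted p = 0.101). The difference between these partners was not tested. Med17, the central subunit of the head, averaged 15.8 ± 1.86 CPM in the knockouts and 18.2 ± 2.54 CPM in the controls. The others, Med6 and Med8, had log2 fold changes of 0.09 and -0.22. Over the 7 head members the median was -0.21, with 0 risen and 1 fallen.

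The junction group held the member with the smallest adjusted p. Med28, a subunit of animal Mediator that also binds the cytoskeletal regulator merlin, had 32.7, 29.6 and 31.3 CPM in the knockouts and 23.2, 18.5 and 18.9 CPM in the controls. All knockout libraries were higher than all control libraries (log2 fold change 0.63, SE 0.13, edgeR adjusted p = 0.0112). Without knockout replicate 1, control replicate 2 or control replicate 3 the edgeR adjusted p was 0.0571, 0.0526 and 0.0530, and under library size alone the log2 fold change was 1.22. Med30, which animals have and yeast lacks, had 8.20, 7.94 and 12.3 CPM in the knockouts and 5.99, 6.77 and 6.41 CPM in the controls. Its groups did not overlap, and knockout replicate 3 stood well above the other knockouts (log2 fold change 0.57, edgeR adjusted p = 0.0877). Med27 and Med29 overlapped between the groups, with log2 fold changes of 0.02 and -0.21. Control replicate 1 was the highest library for both, at 8.47 and 13.4 CPM, while control replicates 2 and 3 had 3.62 and 4.69 CPM of Med27 and 6.58 and 8.51 CPM of Med29.

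None of the 7 middle members tested passed the edgeR test, while 4 lay above and 3 below 0. Med1, through which Mediator binds nuclear receptors such as PPAR alpha, averaged 43.0 ± 5.19 CPM in the knockouts and 36.4 ± 5.34 CPM in the controls (SD, n = 3 each, log2 fold change 0.24, 95% interval -0.09 to 0.58). Med26, which brings in elongation factors, had 8.85, 8.23 and 10.0 CPM in the knockouts and 15.0, 10.6 and 11.5 CPM in the controls. These groups did not overlap, and the log2 fold change was -0.45 (edgeR adjusted p = 0.102). Med21 and Med7 form the hinge of the middle module, as known from yeast, and lay on opposite sides of 0. Med21 had 13.6, 13.6 and 11.2 CPM in the knockouts and 10.4, 9.15 and 9.86 CPM in the controls (log2 fold change 0.38, edgeR adjusted p = 0.0979). Med7 averaged 4.24 ± 0.664 CPM in the knockouts and 5.85 ± 2.28 CPM in the controls, with overlapping groups (log2 fold change -0.47). Med4, Med9 and Med31 stayed between -0.11 and 0.09. The middle median was 0.08, with Med19, the deleted middle subunit, left out.

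Med14, the scaffold that holds head, middle and tail together, had tight replicates. It had 10.1, 9.28 and 9.29 CPM in the knockouts and 12.6, 12.4 and 12.9 CPM in the controls, with no overlap. Its log2 fold change of -0.40 (SE 0.13) did not pass in edgeR (adjusted p = 0.0622) and passed in DESeq2.

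No tail member passed the edgeR test. Med25, a tail subunit that binds the hepatocyte factor HNF4A, averaged 62.6 ± 4.55 CPM in the knockouts and 77.0 ± 11.1 CPM in the controls (SD, n = 3 each, log2 fold change -0.30, edgeR adjusted p = 0.131). Med15, the subunit bound by the lipid regulator SREBP, averaged 49.0 ± 3.59 CPM in the knockouts and 57.6 ± 3.83 CPM in the controls, with no overlap (log2 fold change -0.23). Med16 had a log2 fold change of -0.31. Med23, a partner of the factor ELK1, had 18.1, 18.6 and 18.5 CPM in the knockouts and 11.1, 17.4 and 17.2 CPM in the controls, and Med24 had a log2 fold change of 0.20. The knockouts lay above the controls for Med23, though by little except against control replicate 1 (log2 fold change 0.28, edgeR adjusted p = 0.303). The tail median was -0.23.

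In the kinase module, Med13 rose. It joins the kinase to the core complex. Med13 had 44.6, 40.1 and 38.9 CPM in the knockouts and 31.5, 29.4 and 26.9 CPM in the controls. The groups were well apart (log2 fold change 0.49, SE 0.11, edgeR adjusted p = 0.0181). The edgeR adjusted p was 0.0814 and 0.0532 without knockout replicates 1 and 2, and 0.0661 and 0.0797 without control replicates 2 and 3. Under library size alone the log2 fold change was 1.08. Brip1os, an antisense RNA that overlaps Med13 over 37411 bases, averaged 25.4 ± 2.45 CPM in the knockouts and 25.6 ± 5.51 CPM in the controls (SD, n = 3 each, edgeR adjusted p = 0.959). The paralog of Med13, Med13l, had 22.3, 28.3 and 21.4 CPM in the knockouts and 29.5, 29.1 and 26.3 CPM in the controls, with overlap (log2 fold change -0.24, edgeR adjusted p = 0.244). As a share of the counts of the pair, Med13l took 33.3%, 41.4% and 35.5% in the knockouts and 48.3%, 49.8% and 49.4% in the controls. A share within a library does not depend on the scaling between libraries. The shares did not overlap, and the difference of -12.4 percentage points had p = 0.1 in a two-sided exact permutation test (0.15 adjusted over 3 pairs), the smallest that 3 against 3 libraries allow.

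Med12, which activates the kinase, had 29.0, 40.2 and 33.6 CPM in the knockouts and 40.7, 53.8 and 46.8 CPM in the controls. The highest knockout library lay just under the lowest control (log2 fold change -0.46, SE 0.16, edgeR adjusted p = 0.0701). It was called without knockout replicate 2 (-0.60, edgeR adjusted p = 0.0488) and without control replicate 1 (-0.56, edgeR adjusted p = 0.0211). Med12l had 1.36, 2.1 and 2.68 CPM in the knockouts and 0.584, 1.00 and 1.29 CPM in the controls, from 12 to 86 counts per library. These values did not overlap and did not pass (log2 fold change 1.09, 95% interval 0.18 to 2.01, edgeR adjusted p = 0.0787), while under library size alone Med12l was called (1.68, edgeR adjusted p = 0.0113). Med12l took 4.47%, 4.95% and 7.39% of the counts of its pair in the knockouts and 1.42%, 1.83% and 2.69% in the controls, so Med12 remained the main paralog by counts in every library. This difference of 3.62 percentage points also had an exact permutation p of 0.1 (0.15 adjusted over 3 pairs). The Med12l gene spans several genes of the other strand, among them the nucleotide receptors P2ry12, P2ry13 and P2ry14, and the macrophage markers given above were higher in the same libraries, whose part in these values was not tested. Of these receptors, P2ry14 rose (log2 fold change 1.67, edgeR adjusted p = 0.0216, and 0.0589 and 0.0547 without control replicates 2 and 3). P2ry13 and P2ry12 had 0.69 and 0.43, with overlapping groups, and did not pass. The strand setting of the counting was not given in the sources used here, so reads of these genes and of Med12l cannot be told apart with certainty.

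The kinase Cdk8 had 41.4, 37.6 and 48.8 CPM in the knockouts and 42.0, 47.3 and 51.4 CPM in the controls (log2 fold change -0.14, 95% interval -0.45 to 0.17). Its paralog Cdk19 had 10.3, 7.88 and 11.6 CPM in the knockouts and 6.14, 10.9 and 11.6 CPM in the controls (log2 fold change 0.06, 95% interval -0.56 to 0.68). Both overlapped between the groups, and control replicate 1 was the lowest library of Cdk19. The share of Cdk19 in the pair was 18.8 ± 1.36% in the knockouts and 16.6 ± 3.34% in the controls (SD, n = 3 each, two-sided exact permutation p = 0.4). Cyclin C, Ccnc, the partner of both kinases, averaged 14.7 ± 0.907 CPM in the knockouts and 13.6 ± 0.662 CPM in the controls (log2 fold change 0.12). The kinase median was 0.06.

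**Figure D3:**
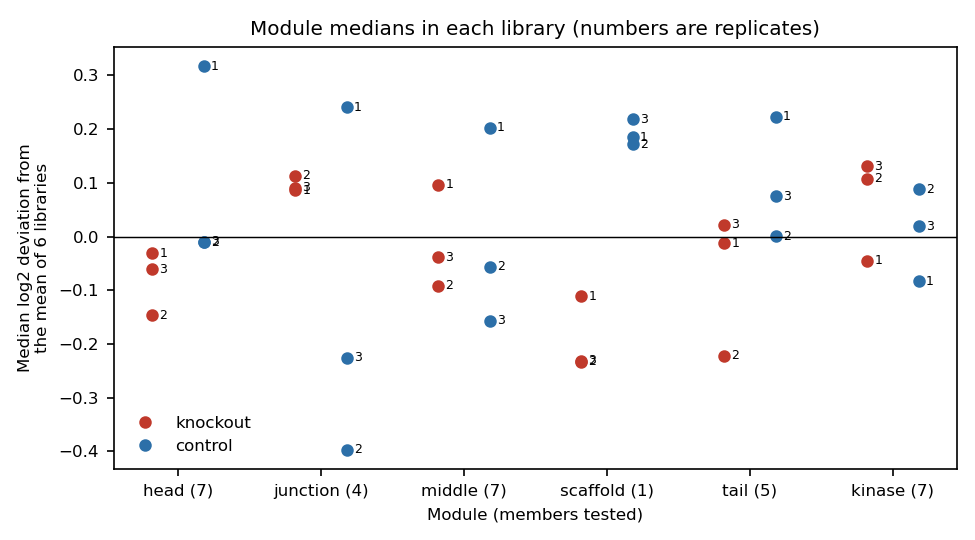
Median over each module's members of the log2 deviation of a library from the mean of all 6 libraries, in knockout (red) and control (blue) libraries, with replicate numbers beside the points. Control replicate 1 is the highest control in the head, junction, middle and tail modules and the lowest in the kinase module, and the groups separate in the head and in the scaffold, Med14.

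Set out by library, control replicate 1 lay farthest from the other libraries in the head and above all of them in the junction, middle and tail modules. In the head the medians were -0.03, -0.15 and -0.06 in the knockouts and 0.32, -0.01 and -0.01 in the controls. In the junction group they were 0.09, 0.11 and 0.09 in the knockouts and 0.24, -0.40 and -0.23 in the controls. These are medians of the log2 deviation from the mean of all libraries. Without control replicate 1, Med28, Med13 and Med11 were called and Med12 was called too, so 2 members rose and 2 fell. Without knockout replicate 1, control replicate 2 or control replicate 3, no member was called apart from Med19, which was called without control replicate 2 or 3.

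Other parts of the transcription machinery around Mediator were read from 5 lists, whose counts stand beside the 25.5% of all genes called. Of 12 subunits of RNA polymerase II, 3 rose and 1 fell. Polr2a, the catalytic subunit that carries the C-terminal repeat tail, rose to 348 ± 13.5 CPM in the knockouts against 111 ± 11.3 CPM in the controls (SD, n = 3 each, log2 fold change 1.65, edgeR adjusted p = 0.000336), and it was called under every alternative tried. Polr2l, a small subunit, rose by 0.72 (edgeR adjusted p = 0.0120, and 0.0525 without control replicate 2), Polr2d rose by 0.61, and Polr2i fell by 0.58. The call of Polr2d ended without any 1 library but control replicate 1 (edgeR adjusted p 0.0836 to 0.126). That of Polr2i ended without control replicate 3 (edgeR adjusted p = 0.0615). It also ended under library size alone, where Polr2i turned to 0.014 on the log2 scale and its adjusted p in edgeR was 0.936. Of 18 general transcription factors 1 rose, Gtf2a1 of TFIIA (0.39, edgeR adjusted p = 0.0310, and 0.0644 to 0.113 without any 1 library but control replicate 1). Of 14 TBP-associated factors tested, Taf9b, a paralog of Taf9, rose (1.32, edgeR adjusted p = 0.0294). Its adjusted p in edgeR was 0.0530 to 0.104 without any 1 library but knockout replicate 3. Taf10 of the same list, which TFIID shares with the SAGA complex, fell (-0.39, edgeR adjusted p = 0.0310). Taf10 turned to 0.21 on the log2 scale under library size alone, where its adjusted p in edgeR was 0.168. The Taf10 call ended without knockout replicate 1 or 2 or control replicate 2 or 3, at adjusted p of 0.0736 to 0.101 in edgeR. Of 11 elongation factors tested, Aff1, a scaffold of the super elongation complex, rose (0.53, edgeR adjusted p = 0.0141, and 0.0534 and 0.0523 without knockout replicate 2 and control replicate 3). Of 7 genes of cohesin and its loader, Smc3, a part of the cohesin ring, fell (-0.59, edgeR adjusted p = 0.0197). On the log2 scale Smc3 was at -0.01 under library size alone, where its adjusted p in edgeR was 0.968. Without knockout replicate 1 or 2 or control replicate 2 or 3, Smc3 had edgeR adjusted p of 0.0562 to 0.0751. The medians of the 5 lists were 0.12, -0.08, -0.10, 0.10 and 0.10, beside 0.02 for Mediator and 0.01 for all genes.

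**Figure D4:**
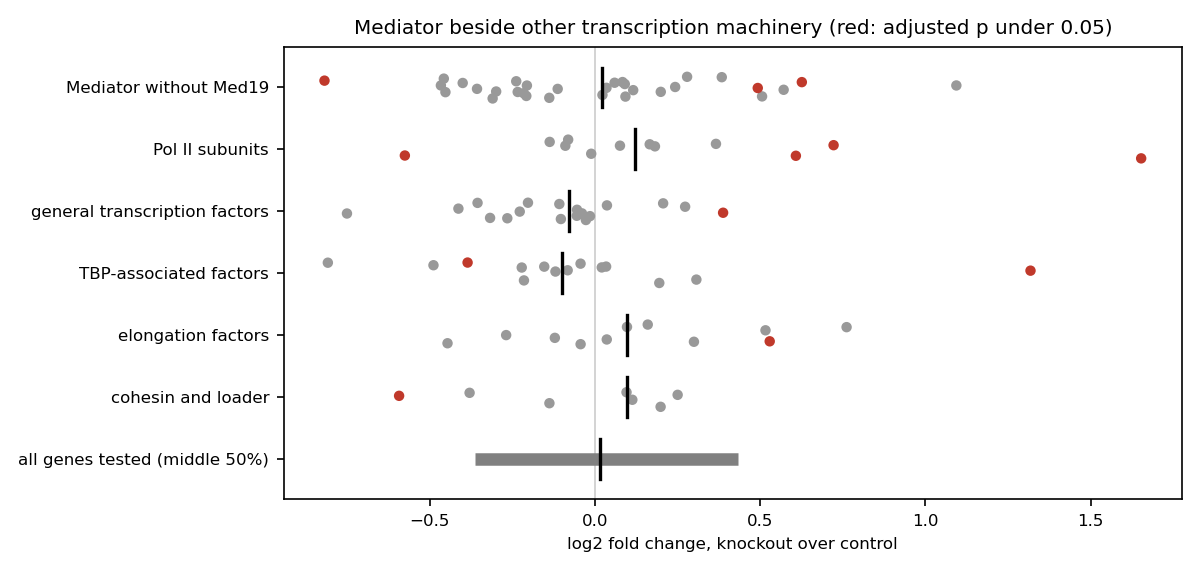
log2 fold change, knockout over control, of each gene tested in Mediator (without Med19) and in 5 lists of other transcription machinery, with red points for an edgeR adjusted p under 0.05, black lines for medians, and a grey bar for the middle 50% of all 15135 genes. The bar runs from -0.36 to 0.43, and Polr2a at 1.65 is the point farthest from 0.

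In the ChIP lists, Mediator genes had regions in the control list alone. The knockout list held a region within 1000 bases of the start of 0 of 31 members, against 9 of 31 in the control list. Of all genes tested for RNA, 2.01% had such a region in the knockout list and 31.9% in the control list, so the members' 29.0% lay near the share of all genes. The knockout list had 1649 rows over 669222 bases and the control list 22793 rows over 10414789 bases. With 1 library per genotype and lists of such unequal length, a missing region is not a measured loss at these genes. Med19 itself had no region in either list. The members with one at the start were Med8, Med17 and Med22 of the head, Med28 and Med29 of the junction, Med7, Med21 and Med26 of the middle, and Cdk8 of the kinase module. None of the 5 tail members had one. Cdk19 had a region 9736 bases into the gene as the count table gives it, which lies 13 bases past the start that RefSeq gives, and with RefSeq starts 10 members had a region there.

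The strongest of these regions was at Med28 (chr5:45520011-45520525), with a fold over background of 12.6 as given by the authors and its summit 2 bases past the gene start. It ranked 1279 by fold in the control list. Med22 (chr2:26910553-26911054) had a fold of 9.93, Med21 (chr6:146642258-146642804) 9.0, Med17 (chr9:15279699-15280218) 8.67, Cdk8 7.74 and Med7 7.02. Those of Med8, Med29 and Med26 were weaker, at 4.95, 4.76 and 4.32, beside a median of 5.33 over the control list. All 9 summits lay between -202 and 98 bases of the gene start. The regions of Med22 and Med29 also shared bases with Rpl7a and Paf1, genes of the other strand. Their summits, at -138 and -202 bases from the Med22 and Med29 starts, lay nearer to the starts of Rpl7a and Paf1. These 2 regions cannot be assigned to the Mediator gene alone. Of these 9 members, Med28 rose in RNA and the others did not pass the test, while Med13 and Med11 had their nearest control regions 99744 and 19047 bases from the start.

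**Figure D5:**
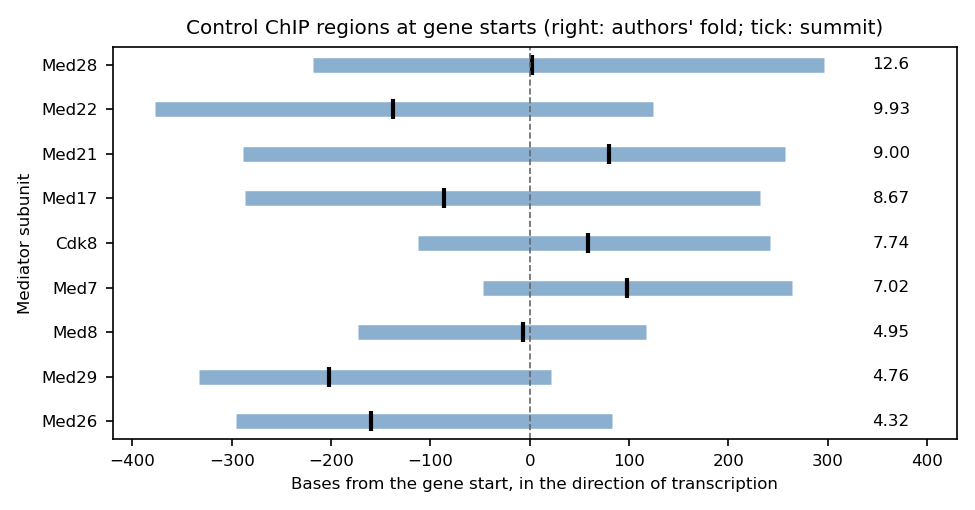
Control ChIP regions at the starts of 9 Mediator genes, as bars from region start to region end in bases from the gene start, with a tick at the summit and the authors' fold at the right. The region of Med28 has the highest fold, 12.6, and covers the gene start.

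The promoters of the 4 members with the highest fold at the start, and of the 2 other members whose RNA passed the test, are shown to set their sequences side by side. Each is the 250 bases before the gene start that RefSeq gives, 5′ to 3′ on the gene's strand, on GRCm38.p6 (mm10). The regions and summits above were placed by the gene starts of the count table instead. For Med22, Med21, Med17 and Med13 the window runs past that start, and in Med21 the joined CCAAT matches lie past it. Capitals mark matches on either strand to the GC box (GGGCGG), the ETS site (CCGGAAG), the CCAAT box (CCAAT), the TATA box (TATAAA) and the NRF1 site (GCGCA, any base, then GCGC), and neighbouring or overlapping matches run together. They lie at chr5:45519979-45520228 (plus strand), chr2:26910643-26910892 (minus), chr6:146642329-146642578 (plus), chr9:15279907-15280156 (minus), chr11:70451668-70451917 (plus) and chr11:86357597-86357846 (minus).
Med28: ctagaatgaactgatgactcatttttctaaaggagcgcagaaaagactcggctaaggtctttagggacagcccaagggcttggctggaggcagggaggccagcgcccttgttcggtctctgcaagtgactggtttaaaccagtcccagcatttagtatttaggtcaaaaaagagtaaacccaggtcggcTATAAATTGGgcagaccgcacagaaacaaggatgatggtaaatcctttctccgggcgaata
Med22: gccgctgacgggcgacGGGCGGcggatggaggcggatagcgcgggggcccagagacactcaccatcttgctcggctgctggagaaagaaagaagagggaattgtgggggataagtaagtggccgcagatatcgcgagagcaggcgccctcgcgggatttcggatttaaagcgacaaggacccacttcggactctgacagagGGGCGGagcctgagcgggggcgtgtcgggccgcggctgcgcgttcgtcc
Med21: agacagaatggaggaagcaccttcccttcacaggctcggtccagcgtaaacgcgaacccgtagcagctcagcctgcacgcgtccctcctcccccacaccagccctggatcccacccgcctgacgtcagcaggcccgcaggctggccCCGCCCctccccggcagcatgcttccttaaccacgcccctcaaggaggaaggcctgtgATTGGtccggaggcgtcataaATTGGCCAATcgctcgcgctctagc
Med17: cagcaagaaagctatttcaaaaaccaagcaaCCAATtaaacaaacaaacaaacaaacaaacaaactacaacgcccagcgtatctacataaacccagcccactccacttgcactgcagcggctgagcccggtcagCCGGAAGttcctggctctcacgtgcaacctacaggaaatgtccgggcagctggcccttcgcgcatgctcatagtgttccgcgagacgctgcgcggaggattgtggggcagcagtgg
Med11: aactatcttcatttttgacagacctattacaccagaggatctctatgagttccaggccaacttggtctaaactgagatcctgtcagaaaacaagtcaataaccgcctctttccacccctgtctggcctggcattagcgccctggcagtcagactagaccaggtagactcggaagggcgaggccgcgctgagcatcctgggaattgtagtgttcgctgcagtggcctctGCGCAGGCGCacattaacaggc
Med13: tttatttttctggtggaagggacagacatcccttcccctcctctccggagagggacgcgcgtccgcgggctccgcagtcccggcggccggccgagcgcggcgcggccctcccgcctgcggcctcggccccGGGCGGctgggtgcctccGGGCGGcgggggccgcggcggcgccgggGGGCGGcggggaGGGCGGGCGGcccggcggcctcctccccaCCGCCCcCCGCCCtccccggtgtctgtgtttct
Med28 held 1 TATA box, which overlaps a reverse CCAAT box, and no GC box. Med13 held 7 GC boxes and none of the other motifs. Med22 held 2 GC boxes, Med21 had 1 GC box and 3 CCAAT boxes, Med17 had 1 ETS site and 1 CCAAT box, and Med11 had 1 NRF1 site. RefSeq's table had promoters for 26 of the 31 members, of which the first listed was read. Of these, 18 held the GC box, 10 the CCAAT box, 3 the ETS site, 4 the NRF1 site and 3 the TATA box, while 32.7%, 33.8%, 6.91%, 3.74% and 12.4% of all 32851 promoters in the table did. The 32851 promoters were not limited to 1 per gene or to genes tested for RNA, as those of the members were. The 2 sets are therefore unlike, and no test was made between them. The motif matches describe the sequence of the window and do not show binding.

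Beyond gene starts, 2 members had a control region at the gene end and 3 in the gene body, or 6.45% and 9.68% of members, beside 13.2% and 19.5% of all genes tested. The knockout list had none at the end or in the body of a member, and 1.96% and 2.41% of all genes tested had one there. At Med23, a region of 6441 bases with 12 summits (chr10:24913739-24920179) began just past the gene end and ran into Arg1, the arginase gene of the urea cycle, which lies on the other strand. Its highest summit had a fold of 17.3. Med26 had regions at its start, in its body and near its end, the last with a fold of 10.6 and reaching from the end into the body. The second region of Cdk8, in its body, had a fold of 1.55 and ranked 22790 of 22793 rows.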

How the data were processed

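RNA was sequenced in 3 knockout and 3 control libraries and ChIP in 1 library per genotype, grouped and numbered by their titles. The labels do not say whether the replicates are separate animals. The p-values then measure only the spread between samples, which may be technical. The members and gene lists were chosen with earlier results of these data known.

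The deposited table holds raw counts per gene on mm10, for which the submitters' processing notes name HISAT2 2.1.0, Bowtie2 2.2.3 and HTSeq 0.6.0. Strand setting and read filters were not given in the sources used here. The authors' own comparison in it holds the fold (ratio) and its log2, p-values before and after adjustment, and a mean normalized signal per gene that was not used. The deposited ChIP lists are in narrowPeak layout, per library, with the authors' score, fold, -log10 p-value and -log10 q-value. For them the submitters' processing notes name MACS2, BWA, SAMtools, deepTools and DESeq2, and the use of an input library is not given.

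Genes passing filterByExpr (minimum count 10, total 15) were given TMM factors and tested in the edgeR 4.0.16 quasi-likelihood test in R 4.3.3, with robust dispersions and no covariate beside genotype, adjusted by Benjamini-Hochberg over all 15135 genes, with a threshold of 0.05. The fit was tested on simulated data. SE and 95% intervals come from this fit. DESeq2 1.42.0, other scalings and filters, a replicate block and leaving out each library were alternatives. Counts per transcript length could not be formed, so levels were not compared between genes, no member was named for its level per length, and paralog shares use counts, not counts per length as planned. Values in every library are given for Med19, members past the threshold, the kinase module paralogs and non-overlapping members with an absolute log2 fold change of at least 0.5. Other members given by library, and neighbouring genes, were chosen after their values were seen. From each other list up to 2 members past the threshold were named, by the smallest adjusted p, and Polr2d and Polr2i after their values were seen. A region counts as at a gene start or end when it shares a base with the 1000 bases on either side. Total counts per library set the precision of low members. Another gene that starts beside a member is not reported here.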

Additional observations from a re-analysis of the deposited data

How the results depend on the processing

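Under library size alone, 18 Mediator members were higher and 0 lower, with medians of 0.63 over all members, 0.39 in the head, 0.90 in the junction, 0.68 in the middle, 0.36 in the tail and 0.64 in the kinase module. This scaling turned the sign of Med8 (0.38), Med17 (0.39), Med20 (0.24), Med29 (0.39), Med4 (0.48), Med7 (0.14), Med26 (0.15), Med14 (0.19), Med15 (0.36), Med16 (0.29), Med25 (0.30), Med12 (0.13), Med13l (0.35), Cdk8 (0.45), Taf10 (0.21), Zdhhc5 (0.48), Brip1os (0.56), Rpl7a (0.19), Paf1 (0.31), Polr2i (0.014) and Bysl (0.32). It called 10 Pol II subunits higher and 0 lower, 10 general factors, 9 TBP-associated factors (0 lower), 7 elongation factors and 5 cohesin genes (0 lower) higher. The shift of all genes under that scaling, 0.59, is part of its construction. DESeq2 called 2 members lower. TBP-associated factors had 0 lower with upper-quartile factors and with no count filter, and general factors 0 higher with no count filter, where Polr2d was lost as well (adjusted p 0.0704). Brip1os turned to 0.053 with upper-quartile factors and 0.00333 without a filter. With Med27 to Med30 added, the head and the tail each had a median of 0.023. At a -log10 q of at least 5, 6 members had a control region at the start, beside 20.6% of all genes tested, and 1 in the body, Med26, whose region at the gene end reaches into the body. Shares per length could not be computed.

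Same-numbered knockout and control libraries correlated by 0.16, 0.07 and 0.14 in their deviations from the group means, each best with its own number, which is a hint from the data only. With the replicate block, 3 members were higher and 2 lower, Med12 and Med12l being called as well (adjusted p 0.0292 and 0.0451), Pol II subunits had 2 higher, Polr2d being lost (adjusted p 0.0623), general factors had 0 higher and TBP-associated factors 0 higher and 0 lower, Brip1os was at 0.00387, and 3468 genes were called in all.

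Leaving out each library gave 0 to 2 members higher and 0 to 2 lower, medians of -0.14 to 0.090 over all members, -0.14 to 0.22 in the middle and -0.18 to 0.10 in the kinase module, and Med19 at -1.84 to -1.30. Pol II subunits had 1 to 3 higher and 0 to 1 lower, general factors 0 to 1 higher and 0 to 1 lower, TBP-associated factors 0 to 1 and 0 to 1, elongation factors 0 to 1 higher and cohesin 0 to 2 lower. Signs changed within -0.16 to 0.33 for Med22, -0.22 to 0.45 for Med27, -0.42 to 0.12 for Med29, -0.038 to 0.22 for Med9, -0.14 to 0.38 for Med31, -0.18 to 0.22 for Cdk19 and -0.18 to 0.10 for Brip1os. They also changed for Bysl (-0.43 to 0.034) and Tm7sf3 (-0.037 to 0.054). The cause was not tested. Med12l, with 12 to 86 counts per library, had the widest 95% interval among the members, 0.18 to 2.01.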

Other observations

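The starts of several Mediator genes lie beside the start of a protein-coding gene on the other strand, within 1000 bases. This holds for 4 of the 9 members with a control ChIP region at the start and for 1 of the 22 without, Med20, and for Med19 with Tmx2, where no region was listed. These pairs were picked out after their values were seen, and no test was made. The same shares over all genes were not computed. At such a pair, the 1000 bases on either side of the member's start also hold the start of the neighbour. Rpl7a, a ribosomal protein gene that starts 87 bases from Med22, fell to 164, 155 and 153 CPM in the knockouts against 206, 209 and 209 CPM in the controls (log2 fold change -0.40, edgeR adjusted p = 0.0211), while Med22 had 0.03. The Rpl7a call ended in 5 of the 6 fits that left out a library, with edgeR adjusted p from 0.0565 to 0.0758. Paf1, 243 bases from Med29, and Tm7sf3, 277 bases from Med21, did not pass (-0.28 and 0.01), nor did Bysl, 90 bases from Med20 (-0.28). The difference between neighbours was not tested.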
